A study of Mus musculus with 5 samples.

Results

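Hepatic stellate cells (HSC) are the vitamin A-storing mesenchymal cells of the liver sinusoid, and a small set of transcription factors is known to mark them. Here 10 such factors were followed, as a list given by name: Hand2, Lhx2, Gata4, Gata6, Wt1, Tcf21, Foxf1, Ets1, Zeb2 and Nr2f2. They are 10 of 31053 genes listed in the count matrices, and each was found there by its symbol. The list mixes lineage factors of HSC and fibroblasts with factors that liver endothelial cells and leukocytes also use.

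The libraries were single-cell RNA-seq of liver cells from male Rosa26mTmG;Col1a1-Cre mice on a C57BL/6J background. The reporter and the Cre were carried by every mouse, controls included, and a green label marks cells in which Cre, driven by the Col1a1 promoter, has acted. DEN+WAD mice received diethyl nitrosamine (10 mg/kg) at 2 weeks of age and, from 6 weeks, a liquid Western diet with 3.5% v/v ethanol for 5 months. Chow mice received saline and chow over the same times. Cells were sorted by the green label (Col1a1) and by vitamin A autofluorescence (VitA), which gave VitA+Col1a1+ and VitA-Col1a1+ libraries from both regimens and a VitA-Col1a1- library from DEN+WAD. The number of mice behind a library was not given in the sources used here, and there was 1 library per group. Differences between groups therefore have no replicate check, and every interval is a 95% interval that covers counting error only.

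The libraries held 259 to 10481 cells and 6145748 to 149936344 unique molecular identifiers (UMIs), with medians of 9106 to 24077 UMIs per cell. The 4 Col1a1+ libraries are called VitA+ or VitA- with their regimen from here on. Any pair of libraries shared 0 to 21 cell barcodes. Cells with 20 or more summed Dcn, Col3a1 and Colec11 UMIs per 10000 were called mesenchymal, which were 81.1% to 97.9% of the cells in the 4 Col1a1+ libraries and 52.6% in the remaining one. That library went against its label, since Col1a1 RNA was at 1062 UMIs per 1000000 there against 304.1 and 958.1 in the Col1a1+ libraries of the same regimen. Below it is named as labelled, and it enters none of the 4 comparisons between libraries. It also held 24.5% endothelial cells and 12.3% macrophages by their markers, and its matrix header names another release of Cell Ranger.

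The factors work at different points of mesenchymal identity. Hand2 and Tcf21 are basic helix-loop-helix proteins that bind E-boxes, and Lhx2 is a LIM-homeodomain protein whose loss in mice is known to cause liver fibrosis with activated HSC. Foxf1 is a forkhead factor of gut and liver mesenchyme. Gata4 and Gata6 are zinc finger factors of the GATA family, and Gata4 also sets the sinusoidal identity of liver endothelium. Wt1 is a zinc finger factor known from mesothelium and the embryonic mesenchyme that gives rise to HSC. Ets1 is used by endothelial cells and lymphocytes, Zeb2 by macrophages and mesenchyme, and Nr2f2 (COUP-TFII) by venous endothelium and mesenchyme.

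Hand2 lies at chr8:57320983-57324633 on the plus strand of GRCm38 and Lhx2 at chr2:38339281-38369733 on the plus strand. The 250 bases before the RefSeq start of both genes (GRCm38.p6) are shown because Lhx2 had the widest gap between the vitamin A gates of the factors higher in VitA+, and Hand2 is a lineage factor with the same order. The Hand2 stretch is chr8:57320733-57320982 and the Lhx2 stretch chr2:38339031-38339280, and both read along the plus strand. Capitals mark matches on either strand to CANNTG (the E-box), to GATA, to the homeodomain core TAATTA, to the nuclear receptor site AGGTCA or to the ETS core CCGGAA.
Hand2: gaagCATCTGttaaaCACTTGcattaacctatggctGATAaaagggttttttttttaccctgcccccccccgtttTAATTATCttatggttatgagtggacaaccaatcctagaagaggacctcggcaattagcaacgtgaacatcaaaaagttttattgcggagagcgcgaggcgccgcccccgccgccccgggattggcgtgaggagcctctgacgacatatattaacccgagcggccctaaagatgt
Lhx2: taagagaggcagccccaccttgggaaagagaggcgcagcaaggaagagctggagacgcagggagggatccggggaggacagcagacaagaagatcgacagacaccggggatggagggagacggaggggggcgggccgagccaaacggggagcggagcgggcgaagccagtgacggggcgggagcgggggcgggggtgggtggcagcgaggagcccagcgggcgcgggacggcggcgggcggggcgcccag
The Hand2 stretch held 2 matches to CANNTG, 2 to GATA and 1 to TAATTA, the last one overlapping a GATA match on the minus strand. The Lhx2 stretch held none of the 5. Of 32851 promoters of the same length, 66.2% held CANNTG, 53.6% GATA, 4.84% TAATTA, 14.0% AGGTCA and 12.0% CCGGAA. These are matches of letters, not sites of binding. Promoters were matched for 5 of the 10 members (Hand2, Lhx2, Tcf21, Zeb2 and Nr2f2).

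Levels in whole libraries are given as UMIs per 1000000 of all UMIs (CPM). For Hand2, Lhx2, Tcf21, Foxf1 and Ets1 they ran in 1 order over the Col1a1+ libraries, with the VitA+ libraries highest. In such sums, fewer cells of a type and less RNA per cell cannot be told apart. Half-widths of the counting intervals were at most 8.23% of the level for every factor but Wt1.

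Hand2 was at 413.9 CPM in VitA+ chow, 349.7 in VitA+ DEN+WAD, 216.7 in VitA- DEN+WAD, 176.8 in VitA- chow and 120.0 in that labelled VitA-Col1a1-. Lhx2 was at 424.7, 379.0, 164.1, 41.1 and 60.5 CPM in the same libraries. For both genes the 2 VitA+ libraries were above the 2 VitA- ones of the Col1a1+ gate. Tcf21, known as a factor that holds HSC in the quiescent state, was at 856.0, 583.6, 482.3, 361.5 and 178.7 CPM. Foxf1 was at 402.9, 314.7, 279.6, 180.9 and 78.8 CPM. These 4 genes shared the order of the Col1a1+ libraries, in which VitA+ chow was highest and VitA- chow lowest. Foxf1 counts are uncertain, since the gene model Gm20388 overlaps it on the same strand and is listed at 0 UMIs in all 5 libraries.

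The GATA factors and Nr2f2 did not follow that order. Gata4 was at 94.4 CPM in VitA+ chow, 68.9 in VitA+ DEN+WAD, 111.1 in VitA- DEN+WAD, 119.3 in VitA- chow and 65.1 in that labelled VitA-Col1a1-. Gata6 was at 136.5, 156.7, 163.8, 211.5 and 67.3 CPM, and Nr2f2 at 591.5, 428.5, 423.8, 669.7 and 299.1 CPM. All 3 were highest in VitA- chow. For Nr2f2 the DEN+WAD libraries of the gates did not differ beyond counting error.

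Wt1 went the opposite way to Lhx2. It was at 0.814 CPM in VitA+ chow (5 UMIs in 2 cells, interval 0.264 to 1.90), 6.13 in VitA+ DEN+WAD, 27.9 in VitA- DEN+WAD, 16.7 in VitA- chow and 9.18 in that labelled VitA-Col1a1-. Both VitA- libraries were above both VitA+ libraries. Ets1 was at 371.8, 321.7, 290.8, 169.8 and 366 CPM and Zeb2 at 1087, 962.6, 573.1, 799.5 and 503.7 CPM in that order of libraries. Ets1 had the order of Hand2 and Lhx2 in the 4 Col1a1+ libraries, and its intervals overlapped between VitA+ chow (356.7 to 387.4) and the library labelled VitA-Col1a1- (362.4 to 369.7).

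**Figure D1:**
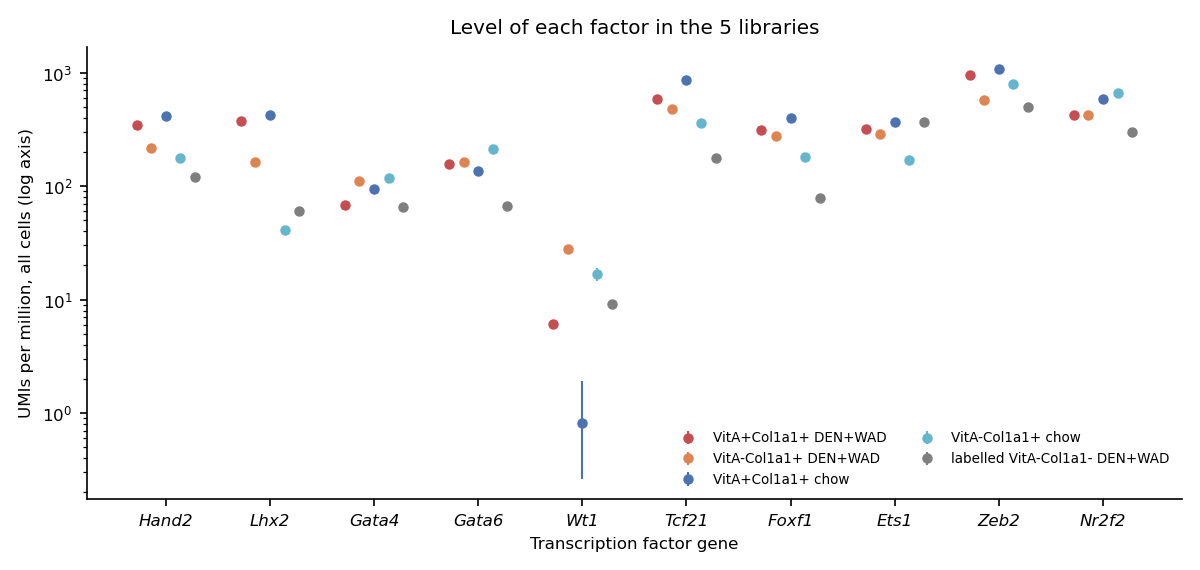
Level of each factor in UMIs per 1000000 over all cells (log axis) in the 5 libraries, 1 point per library with exact Poisson 95% intervals, most of which are smaller than the points. Lhx2 spans 41.1 to 424.7 CPM with both VitA+ libraries on top, and Wt1 spans 0.814 to 27.9 CPM with them at the bottom.

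The class of cell was read next, since the sort gates let other cells through. To make cells comparable, each cell with 5000 or more UMIs was thinned to 5000, and the share of cells with at least 1 UMI was taken. In the library labelled VitA-Col1a1-, which held the most classes, Hand2 was found in 62.0% of 3462 Lrat-positive and 52.6% of 645 Lrat-negative mesenchymal cells, and in 1.83% of 1966 endothelial cells. Lrat encodes the acyltransferase that turns retinol into its storage esters, and a positive cell had at least 1 Lrat UMI of the 5000. Median depths before thinning were 12461, 13777 and 8426 UMIs. Hand2, Lhx2, Tcf21, Foxf1 and Wt1 were at or below 2.17% in endothelial cells, macrophages, T or NK cells, hepatocytes and cholangiocytes of that library.

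The other 5 factors were shared with other classes. Ets1 was found in 97.0% of endothelial cells and 93.5% of 46 T or NK cells, above its 74.7% in Lrat-positive mesenchymal cells. Zeb2 was found in 86.1% of 859 macrophages and 62.0% of endothelial cells. Gata4 was found in 54.1% of endothelial cells against 25.1% of Lrat-positive mesenchymal cells, and Nr2f2 in 79.6% against 81.5%. Gata6 was low in endothelial cells (4.12%) and present in 42.1% of 76 cholangiocytes. The same split was seen in VitA- DEN+WAD, where 73.7% of 422 endothelial cells held Gata4 and 94.1% held Ets1, while 0.948% held Hand2.

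**Figure D2:**
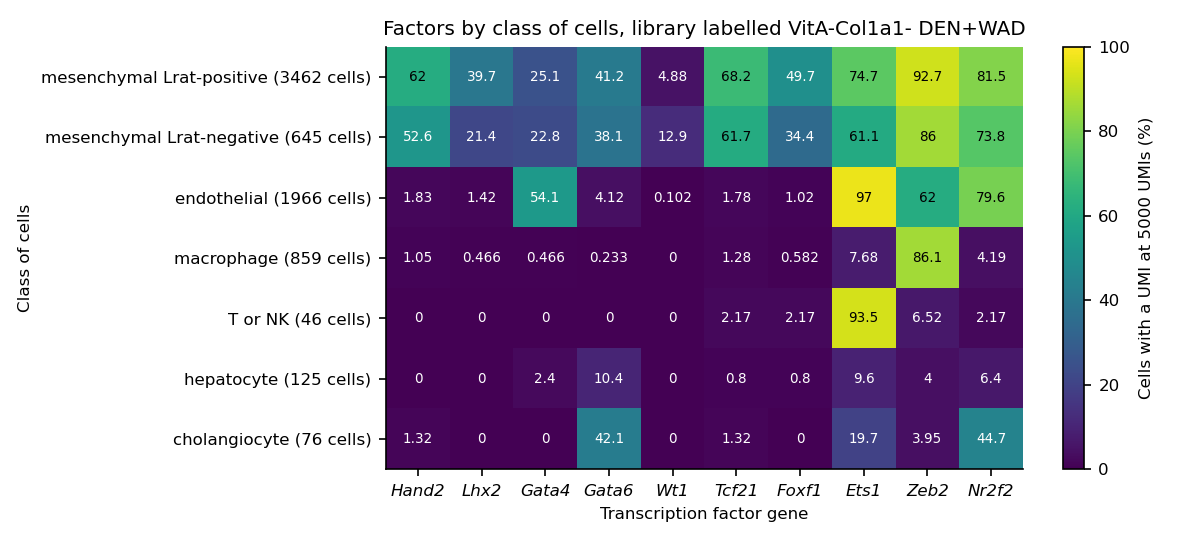
Percent of cells with at least 1 UMI of each factor (columns) at 5000 UMIs per cell, by class of cells (rows), in the library labelled VitA-Col1a1-. Hand2, Lhx2, Tcf21, Foxf1 and Wt1 are at or below 2.17% outside the mesenchymal rows, while Ets1 reaches 97.0% in endothelial cells and Zeb2 86.1% in macrophages.

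Cells carried many of the factors at once. Of the 10, the median mesenchymal cell held 7 in both VitA+ libraries, 6 in both VitA- libraries and 5 in that labelled VitA-Col1a1-. Cells with 7 or more made up 73.7% of VitA+ chow, 57.1% of VitA+ DEN+WAD, 40.4% of VitA- DEN+WAD and 20.9% of VitA- chow. No endothelial cell or macrophage reached 7, in classes of 20 or more cells, and their medians were 3 or 4 and 1.

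Hand2 and Lhx2 were found together in 74.5% (68.5% to 79.8%) of the 243 mesenchymal cells of VitA+ chow and 64.3% (63.3% to 65.2%) of the 10030 of VitA+ DEN+WAD. Together they were in 37.7% (35.7% to 39.8%) of VitA- DEN+WAD and 11.1% (8.73% to 13.9%) of VitA- chow. Cells with Hand2 and no Lhx2 UMI ran the other way, from 10.7% and 14.7% in the VitA+ libraries to 29.8% and 44.9% in the VitA- libraries. At this depth a cell without a UMI may still carry the RNA.

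The first question of the design was what DEN+WAD changes within a gate. In the VitA+Col1a1+ gate only Wt1 passed 2-fold with an interval that excludes 1. It was 7.53-fold higher in DEN+WAD (3.22 to 23.3), at 6.13 against 0.814 CPM, and the chow value rests on 5 UMIs. No member was 2-fold lower. Of 10298 genes with a mean of 5 or more CPM, a filter that all 10 members passed, 2.21% were past 2-fold higher and 3.75% lower.

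The remaining 9 members of the VitA+ gate moved little. Tcf21 was 1.47-fold lower in DEN+WAD (1.43 to 1.51), Nr2f2 1.38-fold lower and Gata4 1.37-fold lower, and Gata6 was 1.15-fold higher. The median log2 ratio was -0.23 over the 10 members and -0.07 over all genes. Scaling by TMM, which estimates a factor from the bulk of genes, shifted every log2 ratio here by 0.19 and put Lhx2 at 0.02 and Zeb2 at 0.01, so the direction of these members depends on the scaling. In Lrat-positive mesenchymal cells Wt1 was again the 1 member higher (2.12% of genes) and 0 were lower (3.1%).

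In the VitA-Col1a1+ gate Lhx2 was the member past 2-fold. It was 3.99-fold higher in DEN+WAD (3.67 to 4.34), at 164.1 against 41.1 CPM. No member was 2-fold lower, and of all genes 5.22% were higher and 3.98% lower. Ets1 (1.71-fold), Wt1 (1.67-fold), Foxf1 (1.55-fold), Tcf21 (1.33-fold) and Hand2 (1.23-fold) were also above their chow values, while Nr2f2 was 1.58-fold and Zeb2 1.40-fold lower. The median log2 ratio was 0.35 over members and -0.02 over all genes.

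The makeup of the VitA-Col1a1+ libraries differed with the regimen. Cells with 20 or more summed UMIs of 11 portal fibroblast markers per 10000 were 75.9% of mesenchymal cells in chow and 31.6% in DEN+WAD, against 0.405% and 0.595% in the VitA+ gate. The summed level of the list was 5678 CPM in VitA- chow and 2326 CPM in DEN+WAD, with none of the 11 genes at 0. Endothelial markers summed to 1194 and 3005 CPM. Cells that passed the same limit for 7 smooth muscle markers were 51.4% of mesenchymal cells in chow and 33.3% in DEN+WAD. In the VitA+ gate they were 8.91% and 11.9%. In Lrat-positive mesenchymal cells the Lhx2 ratio was 4.14-fold (3.78 to 4.54), and without the cells that carry portal fibroblast markers it was 1.94-fold (1.71 to 2.20), which rests on 85 chow cells. Wt1 was 2.15-fold and 2.08-fold higher in these subsets, so 2 members were past 2-fold higher in Lrat-positive mesenchymal cells, against 4.6% of all genes, and 0 lower, against 6.4%.

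The second question was how the vitamin A gates differ within a regimen. In DEN+WAD, Lhx2 was 2.31-fold lower in VitA- (2.26 to 2.37) and Wt1 4.55-fold higher (4.18 to 4.96). These were 1 member lower and 1 higher, against 1.57% and 10.1% of all genes. Zeb2 (1.68-fold) and Hand2 (1.61-fold) were lower and Gata4 (1.61-fold) higher in VitA-. The Nr2f2 difference lay within counting error (log2 ratio -0.02), and the TMM shift of -0.20 in log2 turned Gata6 from 0.06 to -0.14.

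Among Lrat-positive mesenchymal cells of DEN+WAD the gates were closer for Lhx2, Hand2, Tcf21, Zeb2 and Gata4 and further apart for the other five. The log2 ratio of Lhx2 was -0.58 there, against -1.21 over all cells, and no member was 2-fold lower, with 0.767% of all genes past that limit and 7.07% past it in the other direction. Foxf1 turned, from a log2 ratio of -0.17 over all cells to 0.31. Wt1 was 5.64-fold higher (5.13 to 6.20), against 4.55-fold over all cells. Gata6 went from a log2 ratio of 0.06 to 0.26 and Ets1 from -0.15 to -0.34. Gata4, shared with endothelial cells, was 1.61-fold higher over all cells and 1.17-fold in this subset. Endothelial cells were 16.6% of the VitA-Col1a1+ and 1.72% of the VitA+Col1a1+ library.

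In chow the gates stood further apart. Lhx2 was 10.3-fold lower in VitA- (9.45 to 11.3), Tcf21 2.37-fold (2.28 to 2.46), Hand2 2.34-fold (2.22 to 2.47), Foxf1 2.23-fold and Ets1 2.19-fold lower. Wt1 was 20.6-fold higher (8.70 to 63.9), against 5 UMIs. So 5 of 10 members were past 2-fold lower and 1 higher, where 5.29% and 10.2% of all genes were. The median log2 ratio was -0.79 over members and 0.06 over all genes. The same 5 genes were past 2-fold lower in Lrat-positive mesenchymal cells, where 5.99% of all genes were lower and 9.96% higher, with Lhx2 at 7.05-fold (6.40 to 7.77).

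The chow gates also differed in portal fibroblast markers, at 5678 CPM in VitA- against 77.1 in VitA+, where 1 of the 11 genes was at 0. Without cells that carry them, 2 of 10 members remained past 2-fold lower among Lrat-positive mesenchymal cells. These were Lhx2 at 2.87-fold (2.52 to 3.27) and Tcf21 at 2.08-fold (1.92 to 2.25). Hand2 was 1.62-fold lower in that subset and Zeb2 was at a log2 ratio of 0.07 against -0.44 over all cells. The subset holds 85 VitA- and 242 VitA+ cells. Smooth muscle markers summed to 4761 CPM in VitA- chow and 899 CPM in VitA+ chow. Mesenchymal cells that carry them were 51.4% and 8.91%. The subset was not chosen by these markers, and their part in the ratios between the chow gates was not tested.

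**Figure D3:**
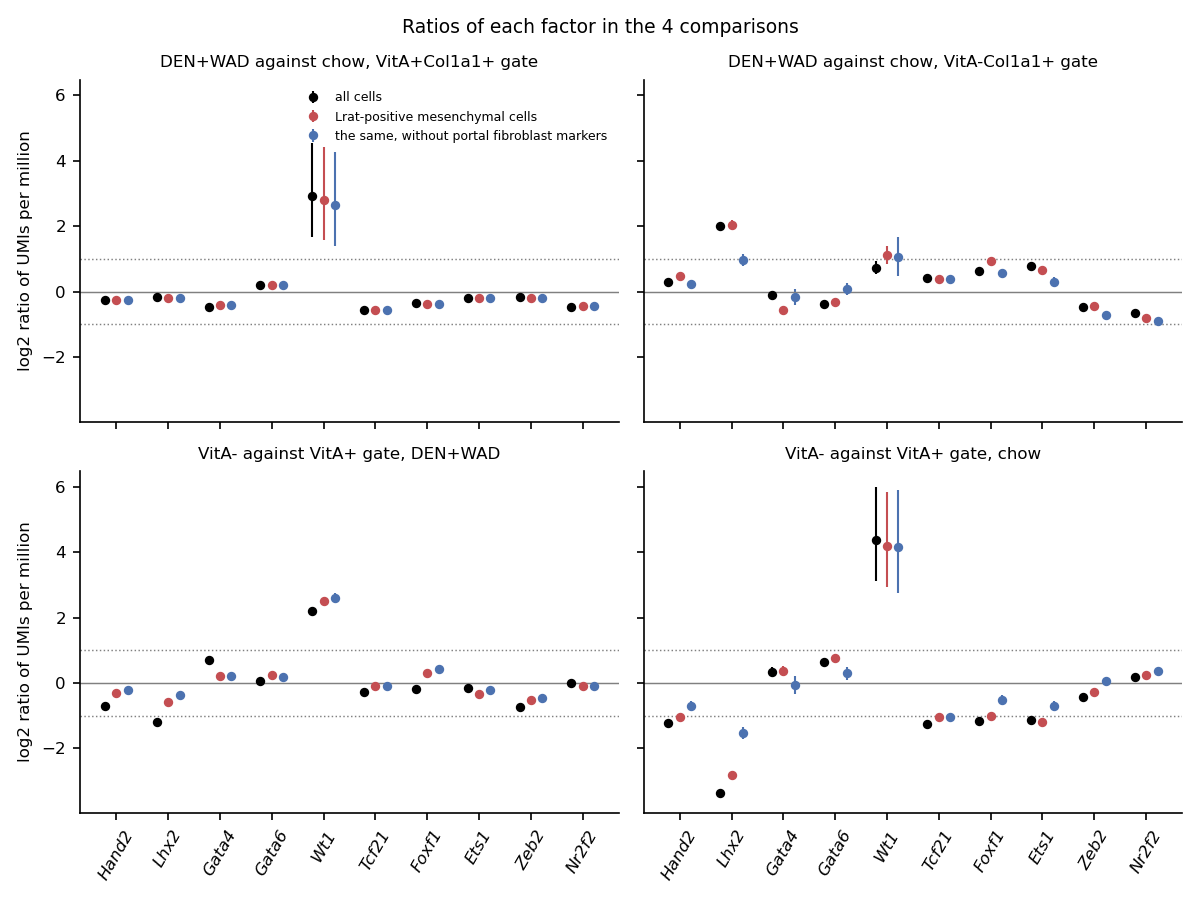
log2 ratio of UMIs per 1000000 for each factor in the 4 comparisons, over all cells (black), Lrat-positive mesenchymal cells (red) and the same without portal fibroblast markers (blue), with 95% counting intervals and dotted lines at 2-fold. Lhx2 in the chow gates moves from 10.3-fold to 7.05-fold and 2.87-fold lower across the 3 sets of cells, and Wt1 stays above the upper line in both comparisons of the gates.

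The factors were then compared between Lrat-positive and Lrat-negative mesenchymal cells of 1 library, at 5000 UMIs per cell. Lhx2 differed most between them, though not in every setting for VitA- chow. It was found in 64.2% of 1528 Lrat-positive and 15.4% of 602 Lrat-negative cells of VitA- DEN+WAD, a difference of 48.8 percentage points (44.8 to 52.4). In VitA+ DEN+WAD the shares were 80.7% of 9935 and 47.4% of 95 cells, in VitA- chow 22.2% of 342 and 10.8% of 260, with 39.7% and 21.4% in that labelled VitA-Col1a1-. In VitA+ chow all 243 cells were Lrat-positive, and 86.8% held Lhx2. At 2000 UMIs Lhx2 differed by 7.79 points in VitA- chow and Ets1 by 12.9. With Lrat called at full depth these were 10.8 and 18.0 points.

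Of the 95 Lrat-negative cells of VitA+ DEN+WAD, all but 15 had a Lrat UMI at full depth. Of the 602 such cells of VitA- DEN+WAD, 317 had none at full depth. The counts were 126 of 260 in VitA- chow and 281 of 645 in the library labelled VitA-Col1a1-. A negative cell is thus one with low or no Lrat. Hand2 was more frequent in Lrat-positive cells of all 4 libraries, by 16.0, 10.5, 9.85 and 9.46 points in VitA+ DEN+WAD, VitA- DEN+WAD, VitA- chow and the library labelled VitA-Col1a1-. With Lrat called at full depth the VitA- chow differences of Hand2 (4.55 points, -5.52 to 14.7) and Tcf21 (8.96 points, -0.16 to 18.7) had intervals that include 0. Foxf1 differed by 19.8, 24.5, 4.74 and 15.3 points in these, and the chow interval (-3.46 to 12.9) includes 0. At 2000 UMIs Foxf1 differed by 1.59 points (-2.10 to 5.24) in VitA+ DEN+WAD and 12.2 (4.27 to 20.1) in VitA- chow. With no thinning its chow difference was 6.23 points (0.577 to 13.5). Ets1 differed by 15.5, 18.8, 7.77 and 13.6 points, with 0 again inside the chow interval. Other settings gave Ets1 chow intervals that exclude 0. These were no thinning (17.2 points, 8.90 to 26.4) and Lrat called at full depth (18.0, 8.03 to 27.2). The same held at 2000 UMIs (12.9, 5.55 to 20.4) and with 2 or more Lrat UMIs (10.8, 1.62 to 19.7). With mesenchymal limits of 10 or 40, or without cells with other markers, the Ets1 chow interval included 0. Tcf21 differed by 13.0, 0.371, 10.7 and 6.46 points, and in VitA- DEN+WAD it was found in 84.4% and 84.1% of the cells (-3.05 to 4.01 points). At 2000 UMIs its VitA- chow difference was 2.76 points (-5.62 to 11.1).

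The GATA factors showed no difference beyond counting error at this depth. Gata4 differed by -2.75, -1.19, -5.17 and 2.28 points and Gata6 by -0.461, 2.95, 5.93 and 3.02 points, and every interval includes 0. Other settings gave differences for them. With no thinning Gata4 was 8.04 points (1.82 to 14.1) and Gata6 6.92 points (1.03 to 13.1) more frequent in Lrat-positive cells of the library labelled VitA-Col1a1-. At 2000 UMIs Gata4 was 3.46 points (1.09 to 5.54) more frequent in VitA+ DEN+WAD. In VitA- chow Gata6 was 8.22 points more frequent with no thinning, 8.19 at 2000 UMIs and 10.2 where positive cells had 2 or more Lrat UMIs. Zeb2 was 6.22, 5.76 and 6.62 points more frequent in Lrat-positive cells of the 3 DEN+WAD libraries. Nr2f2 differed by 8.46, -2.09, -0.756 and 7.74 points in VitA+ DEN+WAD, VitA- DEN+WAD, VitA- chow and the library labelled VitA-Col1a1-. The VitA- DEN+WAD and VitA- chow intervals include 0. With a mesenchymal limit of 10 the VitA+ DEN+WAD interval of Nr2f2 (-0.121 to 17.7) also includes 0. Wt1 was less frequent in Lrat-positive cells of VitA+ DEN+WAD (1.68% against 12.6%) and of the library labelled VitA-Col1a1- (4.88% against 12.9%). In VitA- DEN+WAD it was in 10.2% and 8.64% of the cells, a difference of 1.57 points (-1.36 to 4.24). With no thinning it was more frequent in Lrat-positive cells of that library (18.3% against 12.0%, 6.27 points, 1.82 to 10.1).

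In all, 7 members were more and 1 less frequent in Lrat-positive cells of VitA+ DEN+WAD, against 7.2% and 7.3% of 7666 genes found in 5% or more of the cells. The counts were 5 and 0 in VitA- DEN+WAD (14.7% and 16.1% of genes), 3 and 0 in VitA- chow (5.12% and 4.02%) and 7 and 1 in that labelled VitA-Col1a1- (11.2% and 9.6%). Portal fibroblast markers moved with the class. Lhx2 was in 18.8% of the 691 cells of VitA- DEN+WAD that carry them. Without such cells the Lhx2 shares there were 70.0% of Lrat-positive and 32.9% of Lrat-negative cells. Cells were gated by marker sums, with no clustering and no doublet caller. Without cells that also passed the gate of another class, 7, 5, 3 and 6 members were more frequent in Lrat-positive cells of the 4 libraries.

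**Figure D4:**
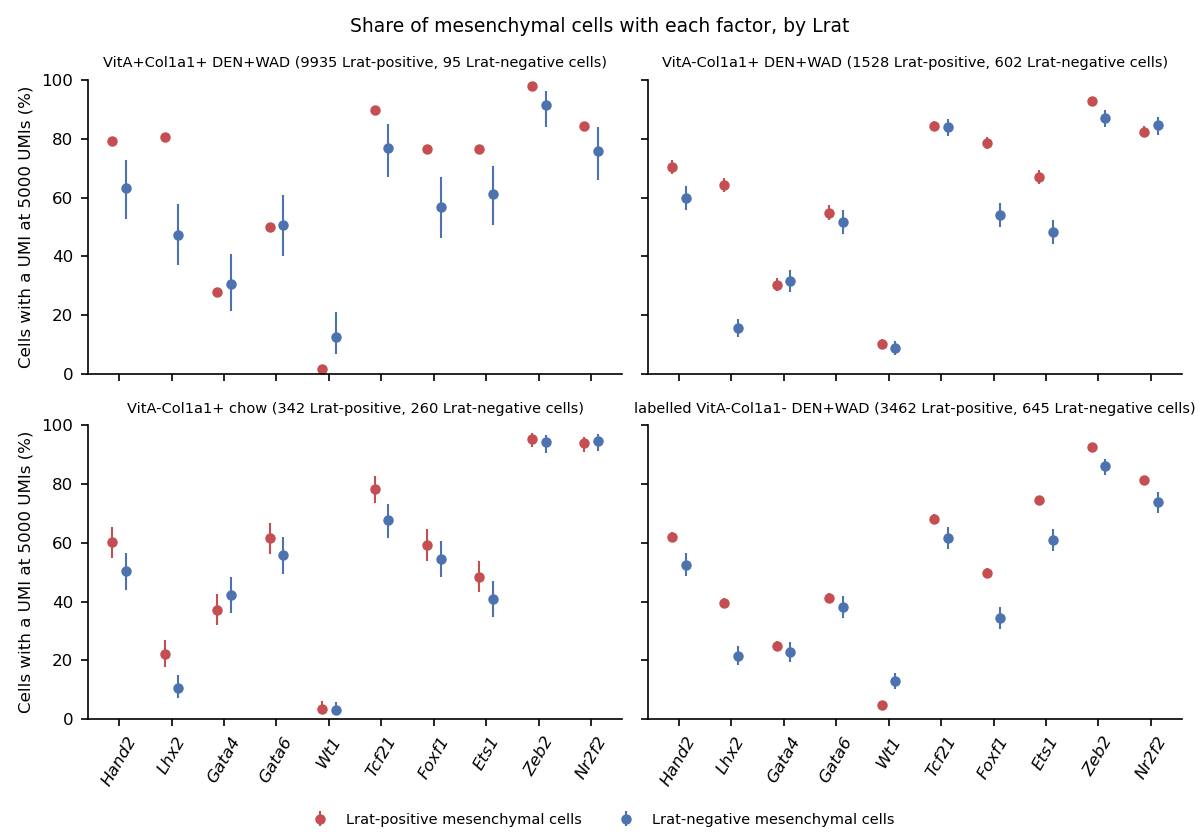
Percent of Lrat-positive (red) and Lrat-negative (blue) mesenchymal cells with at least 1 UMI of each factor at 5000 UMIs per cell, in the 4 libraries with 20 or more cells in both classes, with exact Clopper-Pearson 95% intervals. Lhx2 has the widest gap in VitA- DEN+WAD (64.2% against 15.4%), and Gata4 and Gata6 overlap in every panel.

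Within mesenchymal cells the level of Lhx2 rose with the number of Lrat UMIs in each library but VitA+ chow. In VitA- DEN+WAD, Lhx2 was at 48.5 CPM in cells with 0 Lrat UMIs of 5000, 137.8 with 1 to 2, 275.9 with 3 to 5, 325.0 with 6 to 10 and 380.9 with 11 or more. In VitA+ DEN+WAD it was at 171.6, 269.3, 361.6, 391.7 and 443.3 CPM over the same steps. Lhx2 thus rose at each step in both libraries. In VitA- chow it was at 19.4 CPM at 0 Lrat UMIs and 276.0 CPM (226.4 to 333.2) in the 21 cells with 11 or more. In VitA+ chow it was at 472.4 CPM with 3 to 5, 422.1 with 6 to 10 and 455.1 with 11 or more, with overlapping intervals.

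Wt1 ran down the same steps in VitA+ DEN+WAD, from 32.3 CPM at 0 Lrat UMIs to 23.8, 8.20, 3.83 and 1.78 CPM. In VitA- DEN+WAD it was at 32.2, 43.2, 37.4, 25.9 and 10.5 CPM, highest at 1 to 2 Lrat UMIs. Tcf21 was at 384.0, 522.3, 579.0, 610.9 and 598.7 CPM over the steps of VitA+ DEN+WAD, lowest at 0 Lrat UMIs. In VitA- DEN+WAD it was at 575.7, 605.7, 574.3, 526.6 and 489.1 CPM, lowest at 11 or more. In the latter library Gata4 stayed within 76.5 to 84.0 CPM and Gata6 within 184.4 to 191.7 CPM.

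**Figure D5:**
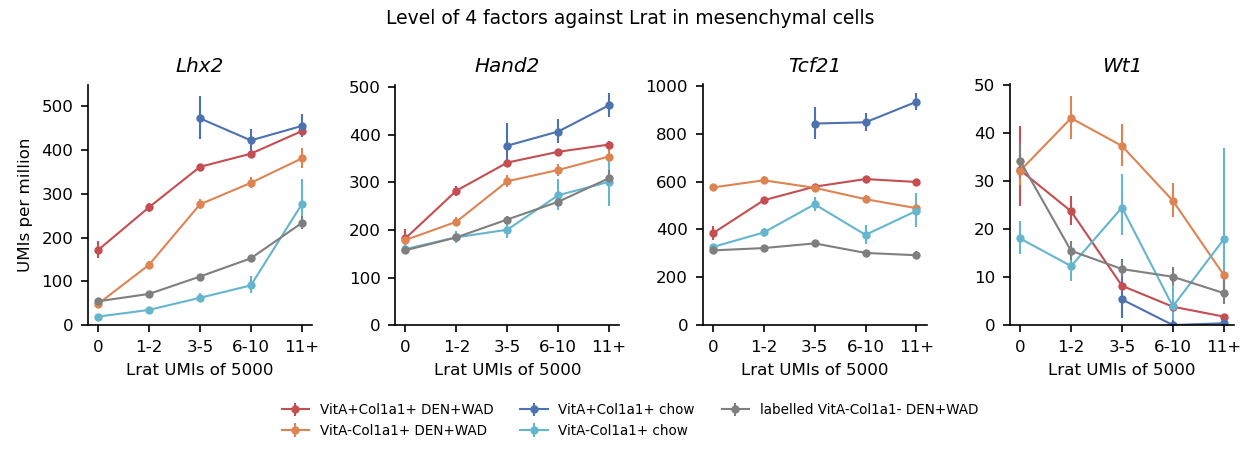
Level of Lhx2, Hand2, Tcf21 and Wt1 in UMIs per 1000000 (vertical axes, 1 scale per gene) in mesenchymal cells grouped by their Lrat UMIs of 5000, 1 line per library with exact Poisson 95% intervals. Lhx2 climbs from 48.5 to 380.9 CPM in VitA- DEN+WAD, and Wt1 drops from 32.3 to 1.78 CPM in VitA+ DEN+WAD.

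The cells that held Wt1 were described further, a choice made after its values were seen. At 5000 UMIs they numbered 179 in VitA+ DEN+WAD, 208 in VitA- DEN+WAD, 20 in VitA- chow and 252 in that labelled VitA-Col1a1-. Of the 179, 93.3% held Lrat, against 99.2% of the remaining mesenchymal cells (-5.86 points, -10.6 to -2.66). Hand2 was in 76.5% and 79.0%. Gata6 (60.3% against 49.9%) and Gata4 (35.8% against 27.7%) were more frequent in the 179. Zeb2 (93.9% against 97.8%) and Ets1 (69.8% against 76.5%) were less frequent. The intervals of the remaining members include 0. Of the 11 portal fibroblast markers, 6 were more frequent in these 179 cells than in the remaining mesenchymal cells, and 0 were less frequent. No share over all genes was taken for this split, so this count and those below have no background. Gas6, a ligand of the TAM receptors, was found in 44.1% and 2.99%, and Dpt, which encodes the matrix protein dermatopontin, in 44.7% and 7.26%. Eln (24.0% against 8.16%), Mfap4 (15.1% against 0.579%), Clec3b (9.50% against 3.61%) and Fbln2 (3.35% against 0.305%) were the other four. Thy1 was in 0 of the 179 cells and in 0.102% of the remaining ones. By class, Wt1 was found in 27.1% (16.4% to 40.3%) of the 59 cells of that library that carry portal fibroblast markers and in 1.56% (1.32% to 1.82%) of the 9891 Lrat-positive cells without them.

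In the library labelled VitA-Col1a1-, 7 of the 11 were more frequent in Wt1-positive cells and 1 was less frequent. Gas6 was found in 78.6% and 33.6%, Mfap4 in 59.5% and 21.3% and Cd34 in 36.5% and 10.5%, while Thy1 was in 2.78% and 8.82%. In VitA- DEN+WAD 2 were more and 2 less frequent. Gas6 was 23.9 points (17.1 to 30.1) more frequent than its 51.1% in the remaining cells, and Dpt was found in 64.9% and 55.6%, while Clec3b was in 15.4% and 28.6% and Thy1 in 0% and 4.73%. Wt1 was in 8.68% of the 691 cells with portal fibroblast markers of this library and 10.0% of its 1269 Lrat-positive cells without them. In VitA- chow all 11 intervals included 0. The 7 mesothelial markers had 0 UMIs in the Wt1-positive cells of the 3 DEN+WAD libraries, which allows up to 1.68%, 1.44% and 1.19% of cells with a UMI at this depth and sets no limit on cells that express them. In VitA- chow Gpm6a, a mesothelial marker, was in 1 of the 20 Wt1-positive cells and 0 of the 582 remaining ones (5 points, 0.0857 to 24.9). The other 6 mesothelial markers had 0 UMIs in those 20 cells. Median depths were 14492 UMIs in the 179 Wt1-positive cells of VitA+ DEN+WAD and 13359 in the remaining ones.

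Other transcription factors were read from 3 lists. Of 26 mesenchymal and fibroblast factors, 12 were past 2-fold higher and 1 lower in VitA- against VitA+ in chow, and 11 and 0 in DEN+WAD. In Lrat-positive mesenchymal cells the counts were 10 and 2 in chow and 7 and 0 in DEN+WAD. Prrx1, a homeobox factor of limb and fibroblast mesenchyme, was at 154.6 CPM in VitA- chow and 3.25 CPM in VitA+ chow. Osr1 was at 17.3 CPM against 0 UMIs, at least 35.4-fold higher by the limit of 3 UMIs that a count of 0 allows. Ebf1 was 32.0-fold higher in VitA- of DEN+WAD, at 86.8 against 2.71 CPM. These factors thus stood opposite to Lhx2, Hand2 and Tcf21. Snai1 was the 1 lower in chow, at 26.3 against 65.9 CPM.

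Of the same list, 3 were past 2-fold higher and 4 lower in DEN+WAD against chow of the VitA- gate. Osr1 (3.48 against 17.3 CPM) and Prrx1 (62.9 against 154.6 CPM) had the lowest ratios of those at 10 or more CPM, and Meis2 (96.0 against 47.3 CPM) and Snai1 (53.1 against 26.3 CPM) the highest. In the VitA+ gate 2 were higher and 0 lower, and Prrx1 was at 12.4 against 3.25 CPM. In Lrat-positive mesenchymal cells the counts were 2 and 1 in this gate and 0 and 3 in the VitA- gate. The VitA- ratios in that subset were 1.67 for Meis2 and 1.90 for Snai1.

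Of 24 paralogues and cofactors of the members, 7 were higher and 0 lower in VitA- of DEN+WAD. They include Gata2, a GATA factor of endothelial and blood cells, at 15.2 against 2.48 CPM, and Zfpm1, a cofactor of GATA proteins, at 19.3 against 7.35 CPM. In Lrat-positive mesenchymal cells the counts were 4 and 0, the Gata2 ratio was 1.40 and the Zfpm1 ratio 1.31. In chow 1 was higher and 1 lower over all cells, and 1 and 5 in Lrat-positive mesenchymal cells. In DEN+WAD against chow 0 were higher and 4 lower in the VitA+ gate and 4 higher and 0 lower in the VitA- gate, with Gata2 at 15.2 against 4.33 CPM and Lmo2, an adaptor of LIM and GATA complexes, at 22.6 against 8.67 CPM. The counts in Lrat-positive mesenchymal cells were 0 and 3 in the VitA+ gate and 3 and 1 in the VitA- gate.

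Of 28 names of activation and quiescence factors 27 were listed, since Mrtfa and Mkl1 name the same gene. In chow 4 were higher and 6 lower in VitA-. Smad7, an inhibitor of TGF-beta signalling, was at 726.0 against 306.2 CPM and Myocd, a coactivator of smooth muscle genes, at 10.1 CPM against 0 UMIs (at least 20.6-fold). Nr1h4, the bile acid receptor FXR, was at 57.2 against 267.0 CPM and Rarb, a retinoic acid receptor, at 19.9 against 54.3 CPM. In VitA- of DEN+WAD 7 were higher and 0 lower, with Nr5a2 at 12.9 against 1.29 CPM and Sox9 at 11.4 against 2.91 CPM. In Lrat-positive mesenchymal cells the counts were 5 and 0, the Nr5a2 ratio was 3.13 and the Sox9 ratio 1.75. Sox9 is also among the cholangiocyte markers used here.

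In DEN+WAD against chow, 2 of these were higher and 1 lower in the VitA+ gate and 3 and 1 in the VitA- gate. Nr1h4 was 2.74-fold higher there, at 156.8 against 57.2 CPM, Nr5a2 2.89-fold higher, and Myocd was at 1.55 against 10.1 CPM. Nr1h4 thus stood on the side of Lhx2 in this gate and in the chow gates. In Lrat-positive mesenchymal cells the counts of DEN+WAD against chow were 1 and 0 in VitA+ and 3 and 3 in VitA-. The background shares given for each comparison above hold for these lists too, and no list was tested.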

How the data were processed

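Each of the 5 libraries was deposited by the authors as a filtered 10x matrix of UMI counts per gene and cell, with whole numbers and no normalization. Per the file headers Cell Ranger 3.1.0 made 4 of them and 6.1.2 the library labelled VitA-Col1a1-. The submitters' processing notes name Cell Ranger 3.1.0 and mm10. The labels name both the v3.1 and the v2 kit, and 10000 cells were targeted. The members and all lists were chosen with earlier results of these data known.

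Levels (CPM) are UMIs of a gene over all cells of a library per 1000000 of its total. With 1 library per group there is no test: CPM values carry exact Poisson intervals, ratios exact conditional binomial intervals, and shares exact Clopper-Pearson intervals, with limits of differences between shares derived from these (level 95%, counting error only). A member counted as past 2-fold when the ratio passed 2 or its inverse and the interval excluded 1. The background was every gene with a mean of 5 or more CPM.

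Cells were classed by summed markers (limit 20 per 10000 UMIs, 100 for hepatocytes) with no clustering. Cells with 5000 or more UMIs were thinned without replacement to 5000 (seed 7), which left out 5 to 2547 cells per library. The text names all 10 members. Of each of the 3 lists and each comparison it names the 2 highest and 2 lowest ratios past 2-fold with 10 or more CPM in 1 library. For each member the 3 genes with the highest Pearson r of log2(CPM + 1) over classes of cells were taken. Gene positions are from GENCODE M21 (GRCm38), with genes within 5000 bases taken as neighbours. Interval coverage and calls were checked on simulated counts.

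Alternatives were TMM factors (edgeR), other totals, means over cells, subsets of cells, a 1.5-fold limit, and other depths and limits for the Lrat classes. Subsets without portal fibroblast markers, or without cells that also carry markers of other classes, were added after seeing the data. Scripts ran in Python and R.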

Additional observations from a re-analysis of the deposited data

Results flagged for a closer look

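For 6 members the difference between DEN+WAD and chow pointed one way in the VitA+Col1a1+ gate and the other way in the VitA-Col1a1+ gate, with both counting intervals clear of a ratio of 1. The difference between the gates was not tested, since each rests on 1 library per group. The log2 ratio of Hand2 was -0.24 in the VitA+ gate and 0.29 in the VitA- gate. That of Lhx2 was -0.16 and 2.00, that of Tcf21 -0.55 and 0.42, and that of Foxf1 -0.36 and 0.63. Ets1 was at -0.21 and 0.78. Gata6 went the other way, at 0.20 and -0.37. With TMM factors Lhx2 was at 0.02 in the VitA+ gate, which ends the opposite direction for this gene, while Hand2 was at -0.05 and Ets1 at -0.02, both within counting error of 0. Portal fibroblast markers summed to 77.1 and 130.3 CPM in chow and DEN+WAD of the VitA+ gate and to 5678 and 2326 CPM in the VitA- gate, and their part in these values was not tested directly. In Lrat-positive mesenchymal cells without those markers the VitA- gate was at 0.22 for Hand2, 0.96 for Lhx2, 0.37 for Tcf21, 0.57 for Foxf1, 0.31 for Ets1 and 0.08 for Gata6, and the Gata6 interval included 0.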

How the results depend on the processing

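Of the counts of members past a limit, 115 of 132 alternatives gave a count within 1.5 times the main one, and none of the member values past the limit changed direction. Of the values of single members and the shares over all genes past 2-fold, 434 alternatives stayed and 202 moved. To stay meant inside the counting interval of the main value for a member. For a share over all genes it meant within 1.5 times the main value. In VitA- against VitA+ of DEN+WAD, the count past 2-fold lower went from 1 to 0 in mesenchymal cells, in Lrat-positive ones, and in those without portal fibroblast markers or without other markers. In chow it went from 5 to 2 without portal fibroblast markers. In DEN+WAD against chow of the VitA- gate, the count higher went from 1 to 2 in Lrat-positive mesenchymal cells, in those without other markers, and with means over cells, where Wt1 joined Lhx2. A limit of 1.5-fold gave 4 higher and 1 lower there, 2 higher and 3 lower in VitA- against VitA+ of DEN+WAD, and 2 higher in chow. Members more frequent in Lrat-positive cells of VitA- chow were 3, and 6 with no thinning, 6 at 2000 UMIs, 5 with 2 or more Lrat UMIs and 2 with Lrat called at full depth. In VitA- DEN+WAD with no thinning the count stayed at 5, with Wt1 gained and Zeb2 lost. With Lrat called at full depth 1 member was less frequent in VitA- DEN+WAD against 0, which was Nr2f2 (-5.09 points, -8.99 to -0.576). With full-depth Lrat calls VitA+ DEN+WAD had only 15 Lrat-negative cells and gave no count, and VitA+ chow gave none under any setting. TMM factors moved log2 ratios by 0.19, 0.08, -0.20 and -0.09 in the 4 comparisons. The causes were not tested. Depth limits Wt1 most, which had 5 UMIs in VitA+ chow. No paired analysis was possible because each group has 1 library and the results come from no test.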

Other observations

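Across 17 units (a class of cells in a library) the pattern of each member was compared with 10894 genes by Pearson's r of log2(CPM + 1). The units share libraries and depth, so r is a description. Tcf21 and Foxf1 were among the 3 closest to each other (r = 0.99), and Dcn, one of the genes that define the mesenchymal class, was close to Foxf1 (r = 0.99). Closest to Lhx2 were Bmp5, Gpat2 and Ngfr (r = 0.98 to 0.99), and closest to Hand2 was Igsf10 (r = 0.99). Closest to Wt1 were Fam180a, Nav3 and Medag (r = 0.98). Gata4 followed Nr2f2 (r = 0.92) more than it followed Hand2 (r = 0.45). Ets1 had no r above 0.59 with any other member.

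RNAs on the strand opposite to a member were mostly near 0. Zeb2os was at 11.2 CPM in VitA+ chow, 6.63 in VitA+ DEN+WAD, 9.09 in VitA- DEN+WAD, 15.5 in VitA- chow and 16.4 in the library labelled VitA-Col1a1-. The order differed from that of Zeb2. Gm27197, which overlaps Lhx2 on the opposite strand, was at 1.95, 2.24, 1.34, 0.0667 and 0.36 CPM in the same libraries, and the value of VitA- chow is 1 UMI. Gm10824, beside Tcf21, was at 3.74, 1.91, 1.36, 1.20 and 0.795 CPM.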
